A study of Mus musculus with 9 samples.

Results

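Interferon-stimulated genes are genes whose transcription rises when a cell senses interferon. A list of 39 of them was followed in mouse liver, and all 39 had a mean of at least 5 normalized counts over the 9 libraries, out of 13081 genes at that level and 32285 identifiers measured. By what they are known for, they were divided into 25 targets of type I interferon, 10 interferon-gamma GTPases, 3 genes of antigen processing and the transcription factor Irf1. Livers came from 4-week-old Tet-OFF mice in 3 groups of 3 libraries. Control mice received tamoxifen only, Dox mice received tamoxifen and doxycycline, and Tc mice received tamoxifen and tetracycline, each drug at 2 mg/mL in the drinking water for 7 days. Mice of all 3 groups carried a piggyBac CAG-CreERT2 allele, Rosa26-LSL-tTA and Rosa26-tetO-Venus-ires-mCherry, so that tamoxifen started expression of the transactivator tTA, and either drug stops tTA from driving the reporter. Controls therefore differed from the drug groups both in the drug and in reporter expression, which cannot be told apart here. The alleles were built in V6.5 embryonic stem cells, a line of C57BL/6 and 129/sv background.

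Type I interferons act through the receptor Ifnar1/Ifnar2 and the kinases Jak1 and Tyk2 on Stat2 and Irf9, whose complex binds the interferon-stimulated response element (ISRE). Interferon-gamma acts through Ifngr1/Ifngr2 on genes with a gamma-activated site (GAS), and induces Irf1 and a family of GTPases that attack the vacuoles of intracellular microbes. Many targets answer to both kinds of interferon, so the classes overlap in life. In liver these genes are known to be expressed at a basal level in hepatocytes, Kupffer cells and endothelial cells. Doxycycline and tetracycline are antibiotics that bind the bacterial ribosome.

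Promoter sequences show what many members share at their start sites. RefSeq promoter windows of build GRCm38.p6, which run from 250 bases before to 50 bases after the start, were found for 31 of the 39 members. The core of the ISRE, the letters GAAANNGAAA on either strand, was present in 18 of these 31 (58.1%) and in 3.99% of the 27025 genes with a window (3.44% of 32851 windows). It was found in 11 of 19 type I targets, 7 of 8 interferon-gamma GTPases, 0 of 3 antigen processing genes and not in Irf1. The GAS letters TTCNNNGAA, which read the same on both strands, were present in 10 of 31 members (32.3%) and in 9.55% of all genes. A match is a description of letters and not evidence of binding, and the 2 motifs can overlap. The stretches below are printed 5′ to 3′ on the strand of the gene, with the ISRE core in capitals. A core on the opposite strand appears as TTTC, any 2 bases, TTTC. Isg15, Stat2, Oas1a and Gbp7 are shown as members with per-library values below. Rsad2 and Tgtp1 are shown because their levels went against those of most members in one Dox library. Ifit3 with Ifit3b, and Igtp with Irgm2, are shown because their stretches are copies or near-copies of each other.
Isg15 (chr4:156200860-156200899, minus strand): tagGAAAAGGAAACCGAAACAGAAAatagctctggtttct
Stat2 (chr10:128270261-128270300, plus strand): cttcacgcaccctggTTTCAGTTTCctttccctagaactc
Oas1a (chr5:120907526-120907554, minus strand): ccttctcggGAAATGGAAACTGAAAatct
Ifit3 (chr19:34583392-34583431, plus strand): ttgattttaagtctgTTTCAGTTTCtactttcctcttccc
Ifit3b (chr19:34607788-34607827, plus strand): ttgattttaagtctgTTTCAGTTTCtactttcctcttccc
Rsad2 (chr12:26456548-26456587, minus strand): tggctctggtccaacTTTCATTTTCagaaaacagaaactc
Gbp7 (chr3:142530268-142530307, plus strand): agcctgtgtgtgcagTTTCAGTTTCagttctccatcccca
Igtp (chr11:58199507-58199546, plus strand): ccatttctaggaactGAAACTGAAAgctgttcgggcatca
Irgm2 (chr11:58214898-58214937, plus strand): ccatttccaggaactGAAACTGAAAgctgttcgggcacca
Tgtp1 (chr11:48992299-48992338, minus strand): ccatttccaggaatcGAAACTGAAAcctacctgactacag

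All 10 stretches lie upstream of the RefSeq start site of their window, and none overlaps an annotated exon of GENCODE M21. Those of Irgm2 and Tgtp1 lie within the annotated span of the gene, downstream of another annotated start, and the other 8 lie outside it. Isg15 had 3 overlapping cores, the first letter of the last one 66 bases before the start, and Oas1a had 2, the last 14 bases before it. The Ifit3 and Ifit3b stretches were identical over 40 bases, and those of Igtp and Irgm2 over 38 of 40.

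**Figure D1:**
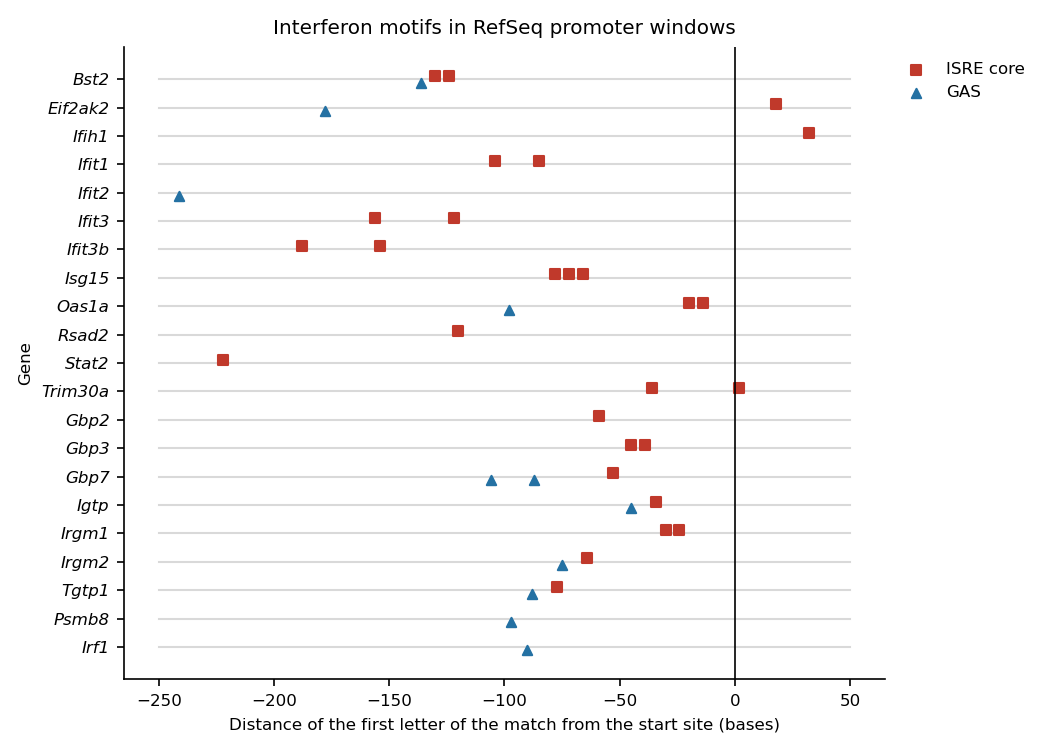
Positions of the ISRE core (red squares) and of GAS letters (blue triangles) in the promoter windows of the members that hold either; the horizontal axis is the distance in bases of the first letter of the match from the start site (black line). ISRE cores are seen in 7 interferon-gamma GTPases and 11 type I targets, and Ifit2, Psmb8 and Irf1 hold GAS letters only.

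The libraries set limits on every value below. Reads on genes, recovered from the deposited values, ranged from 7426136 to 12183041. In each group, library 3 was fitted as a mixture of libraries 1 and 2. The weights were 58.2% and 42.2% for Control, 61.3% and 34.6% for Dox, and 62.1% and 36.8% for Tc. How close the fit was is not given here. The value of library 3 lay between those of the first 2 for 18, 34 and 27 of the 39 members. The paper describes 3 independent samples per group, and whether each library came from a separate mouse was not tested here. If libraries 3 are not independent, p-values from fits of all 9 libraries come out too low, so values are also given without them. Dox replicate 2 stood apart from the rest: it held the lowest value of all 9 libraries for 31.4% of all genes and for 31 of 39 members, so values are also given without it.

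Levels differed widely among members. Per kilobase of exon, the highest were Bst2, the membrane protein tetherin, with a mean of 761 normalized counts per kb over the 9 libraries, and the GTPase Iigp1 with 463. Irgm2 and Igtp followed with 135 and 123 normalized counts per kb. Tgtp1 with 5.44 and Oas2 with 6.29 normalized counts per kb were the lowest. The interferons themselves were nearly absent: of 21 interferon genes in the table, 2 had any read, with 1 read of Ifnk and 2 of Ifng over all 9 libraries.

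Most members were lower with Dox than in control livers, but the size of the difference rested on Dox replicate 2. In this comparison the log2 fold change was below 0 for 35 of 39 members, with a median of -0.73, beside -0.01 over all genes tested. Of the members, 2 fell and 0 rose (limma, adjusted p under 0.05 and a fold over 2), beside 4.01% of all genes that fell and 1.12% that rose. The members that fell were Oas2 and Gbp7. An unadjusted p under 0.05 was reached by 16 members with limma, 15 with DESeq2 and 14 with edgeR, beside 28.6%, 30.2% and 30% of all genes. DESeq2 called 3 members and edgeR 2, all lower, beside 6.13% and 4.14% of all genes that fell by each. The 3 Dox libraries lay below all 3 controls for 17 members and above them for 0, beside 17.4% and 15.3% of all genes.

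Without libraries 3, no member was called by limma or DESeq2, beside 0% and 1.02% of all genes (4 members at an unadjusted p under 0.05 with each, beside 8.75% and 10.2%), while the median was -0.80 and 35 of 39 members stayed below 0. Dox lay wholly below control for 19 members then, beside 20.5% of all genes. Without Dox replicate 2 the median was -0.38, and 32 members were below 0. That setting keeps Dox replicate 3, in whose fitted mixture replicate 2 had a weight of 34.6%. Of the members 3 were called then, all lower, beside 6.73% of all genes that fell, which is near the background. In the same setting 17 lay wholly below control, beside 24.8% of all genes. Without libraries 3 and Dox replicate 2 together, which leaves Dox replicate 1 as the only Dox library, the median was -0.135, with 26 members below 0. The count of called members was 13 without Dox replicate 1, all lower, beside 7.03% of all genes that fell, 0 without Dox replicate 3, 0 without any one of Control replicates 1, 2 and 3, and 1 without Tc replicate 3.

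The library medians of the log2 ratio to the control mean show the same split. Over all 39 members they were -0.16 in Dox replicate 1, -1.50 in replicate 2 and -0.59 in replicate 3. Dox replicate 1 lay below the lowest control for 17 members and above the highest for 10, beside 37.1% and 38.0% of all genes. Dox replicate 2 lay below the lowest control for 35 members, beside 43.3% of all genes, and more than 2-fold below it for 25 members, beside 14.7% of all genes. Its lowest members were Iigp1 at 6.60% of the control mean, Zbp1 at 7.03%, Gbp6 at 9.28%, Psmb9 at 10.8%, Igtp at 11.7% and Cmpk2 at 13.2%, the order taken after the values were seen.

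**Figure D2:**
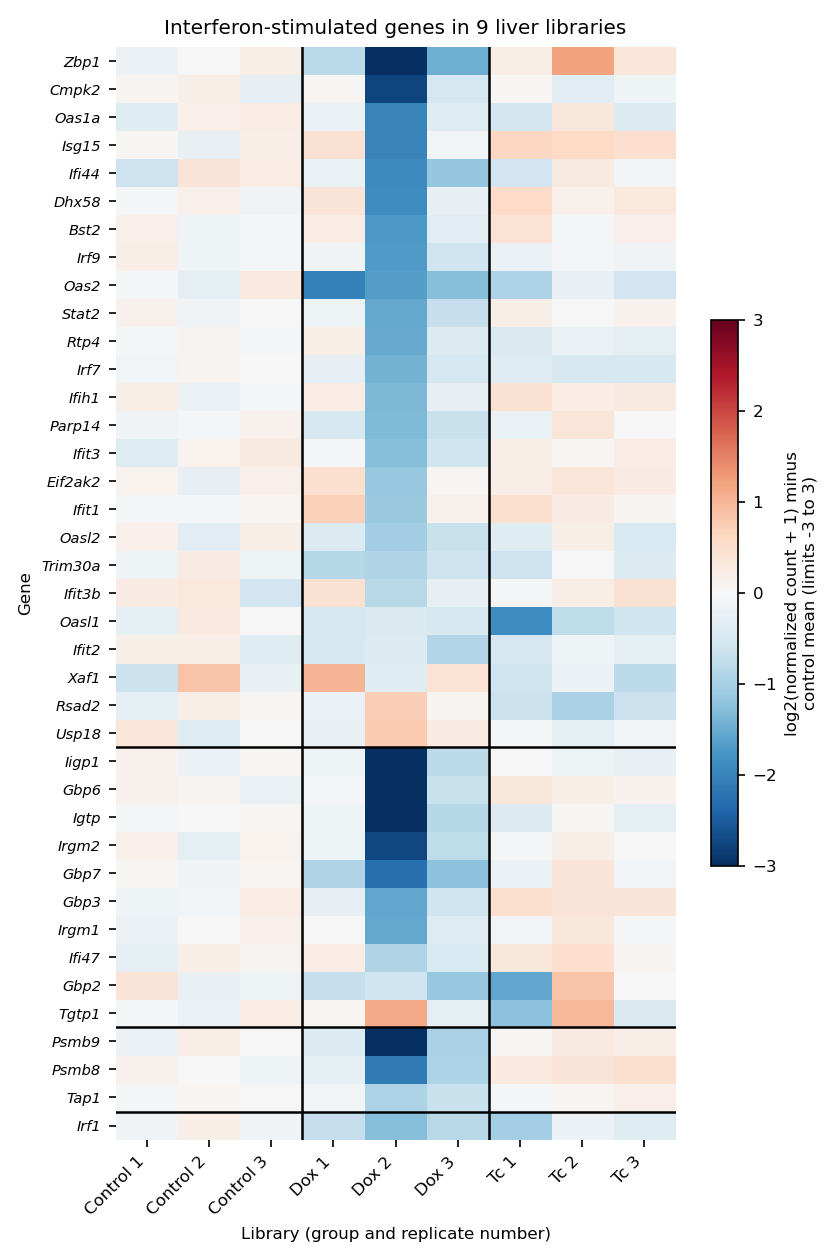
Difference of each library from the control mean on the log2(normalized count + 1) scale, for the 39 members (rows, by class and then by Dox replicate 2) and 9 libraries (columns); blue is lower, red is higher, and colors end at -3 and 3. Dox replicate 2 is the bluest column, with Usp18, Rsad2 and Tgtp1 in red, and Dox replicate 1 is mostly pale.

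Among type I targets, the sensors and the transcription factors that carry the signal had the following values. Ifih1, the RNA sensor MDA5, had 584, 447 and 493 normalized counts in Control replicates 1 to 3, 586, 198 and 424 with Dox, and 695, 588 and 605 with Tc. Irf7, the factor that amplifies interferon production, had 513, 577 and 536 in controls, 456, 204 and 375 with Dox, and 412, 388 and 389 with Tc. Ifih1 overlapped control with Dox and lay above all controls with Tc, while Irf7 lay below all controls in both drug groups. The log2 difference of Irf7 was -0.73 (SE 0.26, limma adjusted p = 0.112) with Dox and -0.45 (SE 0.26, adjusted p = 0.555) with Tc. Stat2, the STAT protein particular to the type I complex, had 556, 467 and 498 normalized counts in controls, 453, 172 and 311 with Dox, and 575, 510 and 550 with Tc. All Dox libraries of Stat2 lay below all controls (log2 difference -0.80, SE 0.30, adjusted p = 0.122), and the Tc libraries overlapped them. Irf9, the DNA-binding partner of Stat2, and Dhx58, a helicase that tunes RNA sensing, overlapped control in both drug groups.

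The antiviral effectors included one of the 2 called members. Oas2, which makes 2′-5′ oligoadenylates that activate RNase L, had 41.3, 34.5 and 52.1 normalized counts in controls, 9.5, 12.7 and 16.7 with Dox, and 21.5, 36.0 and 27.8 with Tc. The Dox libraries lay below all controls and all Tc libraries, with Dox replicate 1 the lowest and not replicate 2. Oas2 fell by 1.66 on the log2 scale with Dox (SE 0.30, limma adjusted p = 0.0170), and its log2 difference was -1.70 without libraries 3 (adjusted p = 0.5515) and -1.66 without Dox replicate 2 (adjusted p = 0.0124). Without libraries 3 and Dox replicate 2 together, its log2 difference was -1.89. Its relatives Oas1a, Oasl1 and Oasl2 were not called, with log2 differences of -0.85, -0.48 and -0.71. Oasl1, a regulator of Irf7 translation, had 81.5, 119 and 96.6 in controls, 67.4, 72.5 and 69.5 with Dox, and 26.4, 57.6 and 64.9 with Tc. It was below all controls in both drug groups and lower with Tc than with Dox.

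Zbp1, a sensor of left-handed nucleic acid that can trigger cell death, had 57.2, 65.5 and 73.7 normalized counts in controls, 36.9, 4.6 and 22.9 with Dox, and 75.2, 151 and 83.4 with Tc. Every Dox library was below and every Tc library above all controls. Its log2 difference with Dox was -1.95 (SE 0.62, limma adjusted p = 0.0859); DESeq2 called it (adjusted p = 0.0280), as did limma without Dox replicate 2 (-1.14, adjusted p = 0.0398). Parp14, an ADP-ribosyltransferase, had 694, 729 and 811 in controls, 532, 296 and 469 with Dox, and 650, 958 and 745 with Tc. Parp14 lay below all controls with Dox (log2 difference -0.82, SE 0.23, adjusted p = 0.0612) and overlapped them with Tc. Bst2, which tethers budding virus to the cell, had 790, 655 and 694 in controls, 836, 215 and 564 with Dox, and 953, 680 and 795 with Tc. For Bst2, Dox replicate 1 was above all controls and replicate 2 was the lowest of all libraries.

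Isg15, a ubiquitin-like modifier, had 49.8, 41.6 and 55.9 normalized counts in controls, 67.4, 11.5 and 45.7 with Dox, and 75.2, 73.7 and 69.1 with Tc. Ifit1, which binds viral RNA caps, had 60.3, 60.2 and 63.6 in controls, 101, 27.6 and 67.7 with Dox, and 85.9, 72.8 and 64.9 with Tc. For Isg15 and Ifit1, Dox replicate 1 lay above and replicate 2 below all controls, so that the Dox means of 41.5 ± 28.2 and 65.5 ± 36.8 (SD, n = 3) describe neither library. Of the 25 type I targets as a class, 22 had a log2 difference below 0 with Dox and 1 fell. Of the others Trim30a, which restrains inflammatory signaling, had the lowest adjusted p (log2 difference -0.80, limma adjusted p = 0.0515).

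A few members did not follow the others in Dox replicate 2, and were named after their values were seen. Usp18, which removes Isg15 from proteins and restrains signaling at the receptor, had 224, 135 and 174 normalized counts in controls, 148, 299 and 207 with Dox, and 166, 142 and 164 with Tc. Rsad2, the antiviral enzyme viperin, had 108, 150 and 136 in controls, 113, 217 and 137 with Dox, and 83.0, 65.6 and 82.5 with Tc. In both, Dox replicate 2 was the highest of all 9 libraries. Tgtp1, a GTPase, had 14.8, 13.3 and 17.8 in controls, 15.8, 34.5 and 12.3 with Dox, and 5.9, 31.5 and 10.9 with Tc, with replicate 2 the highest in both drug groups. Rsad2 and Tgtp1 hold an ISRE core in their promoter windows, as do 16 of the members that lay below all controls in the same library. Usp18 was not among the members with a window.

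The interferon-gamma GTPases spread widely among the Dox libraries. Iigp1, an immunity-related GTPase that breaks up pathogen vacuoles, had 3648, 2928 and 3405 normalized counts in controls, 2965, 220 and 1910 with Dox, and 3358, 2994 and 2826 with Tc. Dox replicate 1 lay inside the control range and replicate 2 far below it, with group means of 3327 ± 366 for Control, 1698 ± 1385 for Dox and 3059 ± 272 for Tc (SD, n = 3). Its log2 difference with Dox was -1.62 (SE 0.79, limma adjusted p = 0.215), -2.02 without libraries 3 and -0.48 without Dox replicate 2.

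Irgm2, a regulator of the effector GTPases, had 646, 478 and 620 normalized counts in controls, 531, 86.3 and 341 with Dox, and 553, 648 and 581 with Tc. Igtp, also called Irgm3, had 298, 318 and 324 in controls, 286, 36.8 and 172 with Dox, and 234, 319 and 256 with Tc. Irgm1 had 424, 480 and 535 in controls, 473, 163 and 365 with Dox, and 454, 603 and 457 with Tc. For these regulators Dox replicate 1 was within or just below the control range, and replicate 2 was the lowest library. Exons of Igtp and Irgm2 overlap on the same strand in the annotation, and the counts of each may depend on how shared reads were assigned.

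Among the guanylate-binding proteins, which coat pathogen vacuoles, Gbp7 was called. Gbp7 had 304, 273 and 308 normalized counts in controls, 157, 61.0 and 126 with Dox, and 260, 383 and 277 with Tc. All Dox libraries lay below all other libraries, replicate 1 included. Gbp7 fell by 1.46 on the log2 scale with Dox (SE 0.32, limma adjusted p = 0.0311), and the log2 difference was -1.55 without libraries 3 (adjusted p = 0.5516) and -1.06 without Dox replicate 2 (adjusted p = 0.00741). Without libraries 3 and Dox replicate 2 together, the log2 difference of Gbp7 was -0.87, a fold under 2. Gbp3 had 63.5, 66.4 and 81.4 in controls, 59.0, 23.0 and 45.7 with Dox, and 98.6, 91.7 and 91.8 with Tc. Gbp6 had 80.4, 77.9 and 64.8 in controls, 71.6, 6.9 and 46.6 with Dox, and 94.7, 83.6 and 81.7 with Tc. Gbp3 lay below all controls with Dox and above them with Tc, while Gbp6 overlapped control with Dox and lay above with Tc. Gbp2 lay below all controls with Dox (log2 difference -0.81, SE 0.52, adjusted p = 0.337), and Ifi47 overlapped them.

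The 3 antigen processing genes lay below all controls in every Dox library. Psmb8, an immunoproteasome subunit, had 249, 228 and 207 normalized counts in controls, 184, 51.8 and 119 with Dox, and 278, 296 and 320 with Tc. Psmb9, its partner subunit, had 103, 133 and 114 in controls, 87.4, 12.7 and 58.9 with Dox, and 119, 139 and 132 with Tc. Tap1, which carries peptides into the endoplasmic reticulum, had 277, 297 and 287 in controls, 270, 151 and 180 with Dox, and 274, 300 and 319 with Tc. In Dox replicate 1 the distance to the lowest control was small for Tap1 and larger for Psmb8 and Psmb9. None of the 3 was called: the log2 differences were -1.12 for Psmb8 (SE 0.38, limma adjusted p = 0.101), -1.49 for Psmb9 (SE 0.58, adjusted p = 0.134) and -0.56 for Tap1 (SE 0.20, adjusted p = 0.114). Without Dox replicate 2 the log2 differences were -0.62, -0.68 and -0.38. Exons of Psmb9 and Tap1 overlap on opposite strands.

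Irf1, the factor that drives antigen processing genes and many GTPases, had 312, 385 and 309 normalized counts in controls, 207, 138 and 187 with Dox, and 165, 295 and 259 with Tc. All drug libraries lay below all controls. Its log2 difference was -0.93 with Dox (SE 0.24, limma adjusted p = 0.0508) and -0.52 with Tc (SE 0.24, adjusted p = 0.459).

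**Figure D3:**
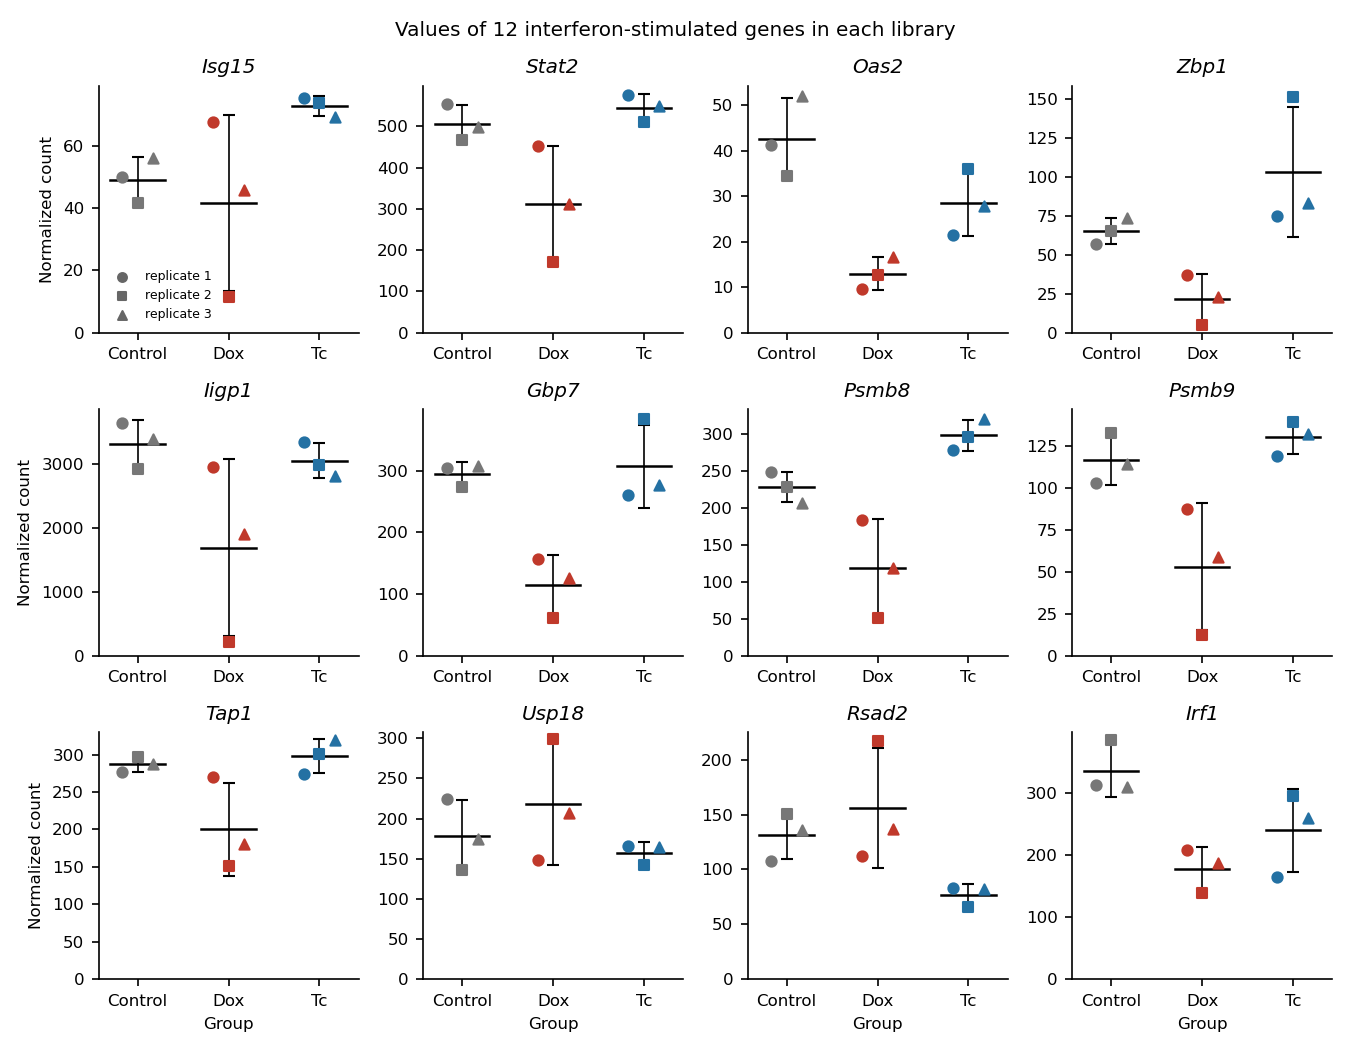
Normalized counts of 12 members in each library, by group (horizontal axis) and replicate (symbols); black lines are group means and bars the SD over 3 libraries, of which library 3 resembles a mixture of the others. Dox replicate 2 (red square) is the lowest point for Iigp1, Psmb8 and Psmb9, while in Oas2, Gbp7 and Irf1 all Dox points lie below all controls.

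Set side by side, the class medians were near each other in Dox replicate 1 and further apart in replicate 2. In Dox replicate 1 the class median of the log2 ratio to the control mean was -0.16 for type I targets, -0.12 for interferon-gamma GTPases and -0.30 for antigen processing. In Dox replicate 2 the same medians were -1.35, -1.91 and -2.11. With Tc the type I medians were -0.19, 0.02 and -0.09 in replicates 1 to 3, the GTPase medians -0.07, 0.36 and -0.03, and the antigen processing medians 0.04, 0.26 and 0.19. The fitted medians with Dox were -0.61, -1.004 and -1.12 for the 3 classes, and -0.26, -0.43 and -0.62 without Dox replicate 2. The order type I, GTPases, antigen processing was the same in both, but both fits hold Dox replicates 1 and 3. The library medians of Dox replicate 1 put GTPases (-0.12) above type I targets (-0.16). The fit with Dox replicate 1 as the only Dox library, given below, kept the order. The difference between classes was not tested.

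**Figure D4:**
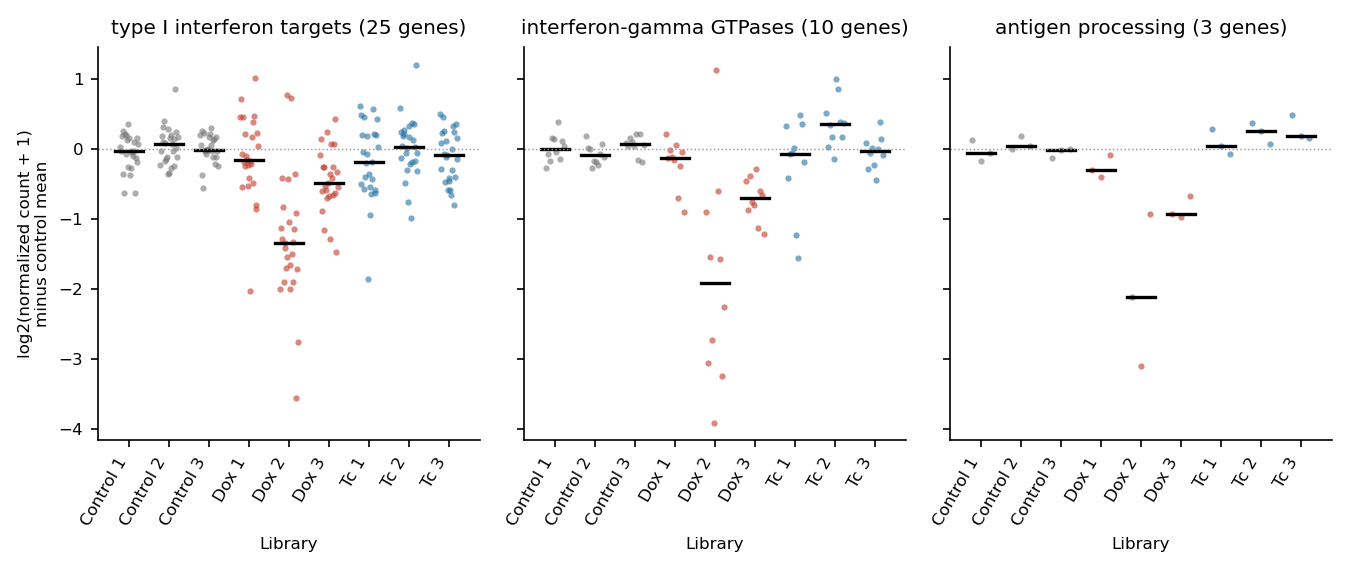
Each point is 1 gene in 1 library, as the difference from the control mean on the log2(normalized count + 1) scale, for the 3 classes with more than 1 member; black bars are medians. In Dox replicate 2 the medians are -1.35, -1.91 and -2.11, and Tc medians stay between -0.19 and 0.36.

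With Tc, the members as a list were centered near 0. The log2 difference to control was above 0 for 20 members and below 0 for 19, with a median of 0.04, beside 0.00 over all genes. No member was called by limma, DESeq2 or edgeR (2 at an unadjusted p under 0.05 with each, beside 11.6% of all genes with limma), beside 0.0535% of all genes that rose and 0.13% that fell by limma, and 1.59% and 0.176% called by DESeq2 and edgeR. Tc lay above all controls for 8 members and below for 5, beside 15.1% and 14.8% of all genes, which is near the background. The members below all controls were Irf7, Oasl1, Rsad2, Rtp4 and Irf1. Rsad2 had the log2 difference -0.76 (SE 0.25, limma adjusted p = 0.318) and Oasl1 -1.07 (SE 0.32, adjusted p = 0.271). Those above were Isg15, Ifit1, Ifih1, Eif2ak2, Zbp1, Gbp3, Gbp6 and Psmb8, with Zbp1 (0.59, SE 0.62), Isg15 (0.57, SE 0.53) and Gbp3 (0.42, SE 0.31) the highest on the log2 scale. Without libraries 3 the median was 0.00, with 0 members called by limma or DESeq2, beside 0 and 9 of the 13081 genes. With each, 1 member reached an unadjusted p under 0.05, beside 275 and 336 of the 13081 genes.

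**Figure D5:**
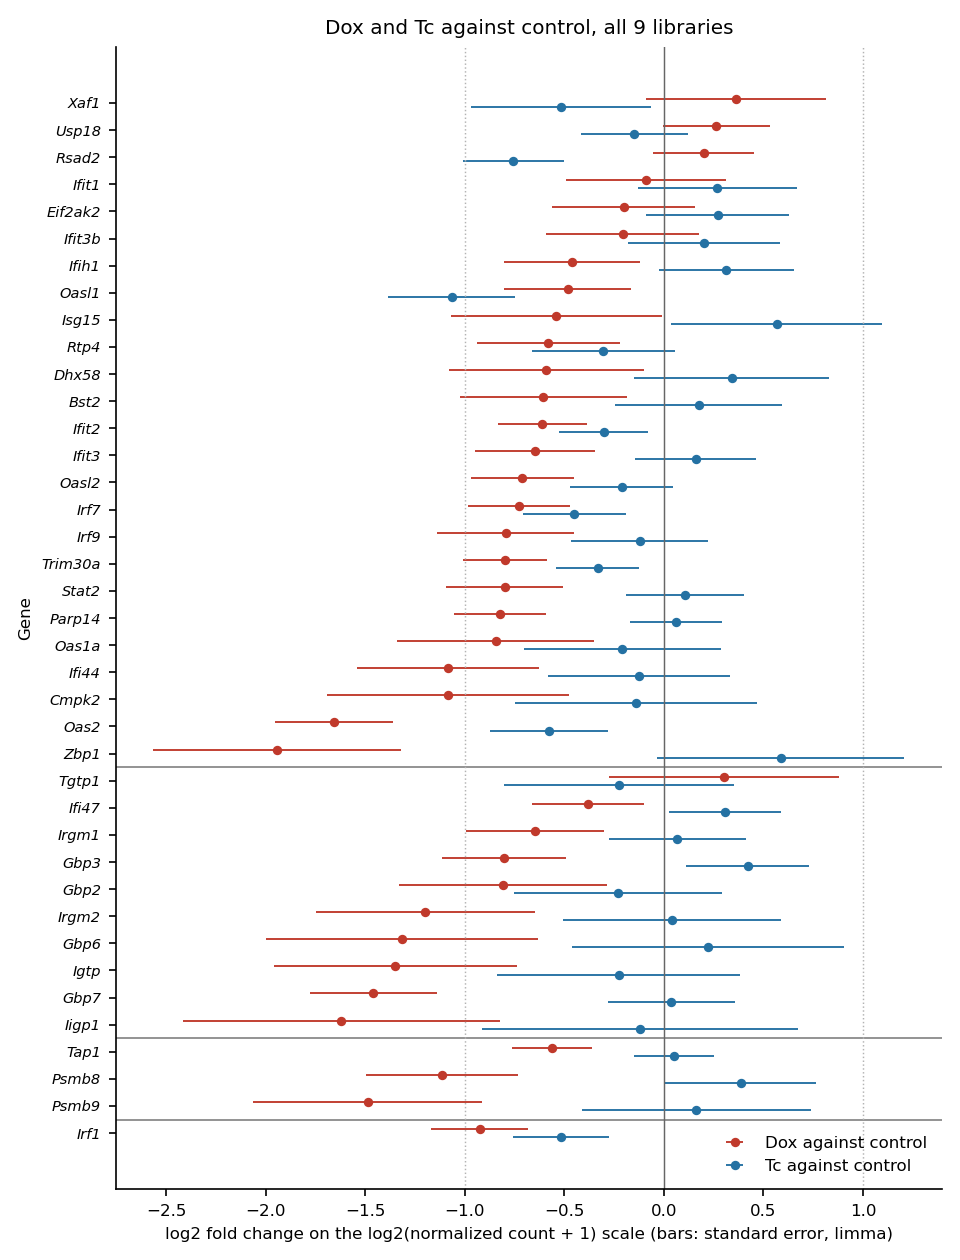
Log2 fold changes of the 39 members with Dox (red) and Tc (blue) against the same controls, with the standard error from limma; lines divide the classes and dotted lines mark a fold of 2. Dox values lie below 0 for 35 members and Tc values for 19, and only Oas2 and Gbp7 pass the thresholds of limma, both with Dox.

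Both drugs were compared with the same 3 control libraries, so the direct comparison of Dox with Tc is given as well. Members were lower with Dox for 34 of 39, with a median log2 difference of -0.71, beside -0.02 over all genes. No member and 0% of all genes were called in either direction by limma (rose 0%, fell 0%), with 13 members at an unadjusted p under 0.05, beside 21.1% of all genes. By edgeR also 0 were called (11 at an unadjusted p, beside 23.1%). DESeq2 called 5, beside 4.88% of all genes. By DESeq2, Zbp1, Gbp3, Gbp7 and Psmb8 were lower, beside 2.56% of all genes, and Rsad2 was higher with Dox than with Tc, beside 2.32%. Dox libraries lay below all Tc libraries for 15 members and above for 2, Rsad2 and Oasl1, beside 12.3% and 11.7% of all genes. The lowest adjusted p by limma was 0.0911, for Gbp7 (log2 difference -1.50, SE 0.32). The largest differences among members with a mean of at least 50 were -2.53 for Zbp1 (SE 0.62), -1.65 for Psmb9 (SE 0.58) and -1.54 for Gbp6 (SE 0.68), and upward 0.96 for Rsad2 (SE 0.25), 0.58 for Oasl1 (SE 0.32) and 0.41 for Usp18 (SE 0.27).

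Without libraries 3, 0 members differed between Dox and Tc by limma or DESeq2 (7 at an unadjusted p under 0.05 with each, beside 3.88% and 6.18% of all genes), and the median was -0.89, with 18 members wholly below Tc, beside 15.8% of all genes. Without Dox replicate 2 the median was -0.34 and limma called Zbp1 (-1.72), Gbp7 (-1.10) and Psmb8 (-1.003), all lower with Dox, beside 1.02% of all genes. Without Dox replicate 1 it called 19 members, 18 of them lower, beside 5.27% of all genes that were lower and 5.69% that were higher.

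Beyond the members, 66 other genes of the pathway were tested: receptors, kinases and STATs, negative regulators, interferon regulatory factors, sensors, MHC class I genes and further interferon targets. With Dox 4 of them fell by limma, all of them further targets, and 0 rose, beside 4.01% and 1.12% of all genes. An unadjusted p under 0.05 was reached by 27, beside 28.6% of all genes. By DESeq2 8 fell and 1 rose, beside 6.13% and 3.16%. With Tc limma called 0, with 12 at an unadjusted p under 0.05, beside 11.6% of all genes, and 1 fell by DESeq2, beside 1.06%. Ifnar1, the receptor chain of type I interferon, had 505 to 613 normalized counts in controls, 522 to 568 with Dox and 529 to 619 with Tc. Ifnar2 had 613 to 808, 467 to 524 and 489 to 604, Ifngr1 280 to 396, 137 to 375 and 209 to 293, and Ifngr2 279 to 358, 198 to 260 and 241 to 260. Both Ifnar2 and Ifngr2 lay below all controls in both drug groups.

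MHC class I genes, which present the peptides that Tap1 carries, were lower in Dox replicate 2 in part. B2m, the light chain, had 8893, 8520 and 9655 normalized counts in controls, 10150, 3204 and 7388 with Dox, and 10550, 8120 and 7955 with Tc. H2-K1 had 10540, 12100 and 10790, then 10330, 6713 and 8653, then 11680, 9578 and 12080. H2-D1, a further heavy chain, had 4962, 6818 and 5131 in controls, 4134, 5141 and 4343 with Dox, and 5124, 5038 and 6170 with Tc. B2m and H2-K1 were lowest in Dox replicate 2, whereas H2-D1 and Nlrc5, the activator of this gene set, were not: Nlrc5 had 475 normalized counts there and 241 to 256 in controls.

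Of 28 further interferon targets tested outside the 39, 4 fell with Dox and 0 rose by limma, beside 4.01% and 1.12% of all genes, and 27 had a log2 difference below 0. By DESeq2 4 fell and 1, Cxcl10, rose, beside 6.13% and 3.16% of all genes. Those that fell were Oas3, a relative of Oas2 (log2 difference -1.43, limma adjusted p = 0.0187), Gbp8 (-2.52, adjusted p = 0.0349), Ifi27l2a (-1.57, adjusted p = 0.0479) and Ifi203 (-1.20, adjusted p = 0.04995). Without libraries 3, 0 of the 28 were called by limma or DESeq2, beside 0% and 1.02% of all genes. An unadjusted p under 0.05 was reached then by 7 with limma and 6 with DESeq2, beside 8.75% and 10.2% of all genes. Oas3 had 44.5, 48.7 and 47.0 normalized counts in controls, 16.8, 17.3 and 15.8 with Dox, and 14.6, 28.8 and 24.4 with Tc, so that, as for Oas2, its Dox libraries lay close together. In Dox replicate 2, chosen after its values were seen, Cxcl10 had 81.7 normalized counts against 15.9 to 21.2 in controls, and Socs3, a feedback inhibitor of cytokine signaling, 454 against 96.3 to 186. Cxcl9, a chemokine that answers to interferon-gamma, had 2.3 there against 39.8 to 156.

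Markers of liver cell types differed between the groups as well. In bulk RNA, fewer cells of a type and less RNA per cell cannot be told apart. Summed hepatocyte markers, 6 genes, ranged from 1127272 to 1588914 normalized counts in controls, 442322 to 840709 with Dox and 831762 to 1244365 with Tc, the lowest being Dox replicate 2. Alb, the albumin gene, made up 57.8% to 88.7% of that sum. Without Alb the other 5 summed to 171112 to 186169 in controls, 186774 to 233257 with Dox and 151154 to 255033 with Tc, so the lower sum with Dox rested on this gene. Cps1, an enzyme of the urea cycle, lay above all controls with Dox (log2 difference 0.69, limma adjusted p = 0.280). In Dox replicate 2 Cps1 had 127200 normalized counts, against 47780 to 58690 in controls, and made up most of the sum without Alb. Ttr (6796, controls 32040 to 37010), Serpina1a (3963, controls 11730 to 13560), Apoa1 (22250, controls 44040 to 44680) and Cyp2e1 (26550, controls 31300 to 37010) lay below all controls there. In Dox replicate 1 the same genes lay above all controls. Summed Kupffer cell markers, 9 genes, were 9132 to 16922 in controls and 4475 to 8922 with Tc, and with Dox 2529, 8387 and 4283 in replicates 1 to 3. The Kupffer sum was lowest of all 9 libraries in Dox replicate 1. Of these 9 Kupffer markers, 3 fell with Dox by limma (Clec4f, Adgre1 and Csf1r), beside 4.01% of all genes. Sinusoidal endothelial markers, 7 genes, summed to 5818 to 6014 in controls, 2792 to 3137 with Dox and 4346 to 5043 with Tc, and 2 of them fell with Dox (Stab1 and Stab2). Sums for T and NK cells were 46.6 to 64.6 in controls and 13.7 to 31.1 with Dox, for B cells 86.8 to 161 and 25.3 to 63.2, for neutrophils 92.1 to 326 and 17.9 to 138, and for plasmacytoid dendritic cells 370 to 502 and 215 to 250. With Tc these sums were 16 to 39.6, 43.0 to 106, 22.5 to 159 and 245 to 423. By limma 1 of 3 tested B cell markers and 1 of 5 tested neutrophil markers also fell with Dox, beside the same 4.01%. DESeq2 called lower 6 Kupffer, 2 sinusoidal, 3 B cell, 2 neutrophil, 1 hepatocyte and 1 plasmacytoid marker and 0 of T and NK cells, beside 6.13% of all genes. Without libraries 3, limma called 0% of all genes. DESeq2 then called 2 sinusoidal, 1 Kupffer and 1 neutrophil marker, beside 1.02% of all genes called in either direction. The plasmacytoid sum was mostly Tcf4 and Ly6d, which other cells also express. Siglech, the more specific marker, was near 0 throughout, with 1.3 to 2.7 normalized counts in controls, 0 to 3.5 with Dox and 2.5 to 6.8 with Tc. No listed marker was at 0 in every library. The part of these cell types in the values of the members was not tested.

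Members with and without the ISRE core were both low in Dox replicate 2. Of the 18 members with an ISRE core, 16 lay below the lowest control there and 2 above the highest, with a median log2 ratio to the control mean of -1.45. Of the 13 members whose listed window lacks the core, 12 lay below and 0 above, with a median of -1.27. In Dox replicate 1 the medians were -0.09 and -0.25. The difference between these groups of genes was not tested.

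Some counts may be shared between genes. Exons of Irf9 overlap Rnf31 and those of Rtp4 overlap Gm45338 on the same strand, and those of Irf7 overlap Phrf1 on the opposite strand. Ifit3 and Ifit3b, the Oas1 and Gbp families and Tgtp1 have close copies, so that uniquely mapped reads may undercount them, and whether counting used strand is not given in the sources used here.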

How the data were processed

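Livers of Tet-OFF mice (Control, Dox and Tc, 3 libraries each) were sequenced as bulk RNA. The authors trimmed reads with cutadapt, aligned them to mm10 with STAR, counted unique reads per gene with HTSeq 2.0.5 and divided the counts by DESeq2 1.42.0 size factors. The deposited values are therefore a signal, normalized counts. All columns were used. Gene symbols came from the GENCODE annotation of GRCm38 for 32158 of 32285 identifiers.

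Members and lists were chosen with earlier results of these data known. Log2(normalized count + 1) was tested with limma 3.58.1 (R 4.3.3) with a trend, in 1 model of all 9 libraries without covariates, over the 13081 genes whose mean was 5 or more. Fold changes are on that scale, which understates the change of low genes. Calls needed a Benjamini-Hochberg adjusted p under 0.05 and a fold over 2. Whole reads were recovered for 100% of the values (tolerance 0.001), and DESeq2 1.42.0 and edgeR 4.0.16 were run on them for comparison. The fits were tested on simulated data first. Depth was at least 7426136 reads per library. Counting error weighs most on low genes, and its size beside the spread between libraries was not tested. Controls of some members lay close together, as for Ifit1 (61.4 ± 1.92) and Tap1 (287 ± 9.96, SD, n = 3). Small distances to the control range may therefore lie within counting error.

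Values per library are given for called members, the members with the highest mean in each class, and the 3 largest rises and falls per comparison among members with a mean of at least 50, and other named genes were chosen after their values were seen. By the replicate numbers in the sample labels, deviations from the group mean correlated between Dox and Tc libraries of equal number (0.265, 0.295 and 0.149) but not with controls (from -0.0497 to 0.0404). Because libraries 3 resemble mixtures, these values may depend on each other. A replicate block was tried as an alternative. Alternatives also covered the pseudocount, the filter, the scaling, the test, the groups fitted, weights, the thresholds and libraries left out. Promoter windows are from RefSeq, GRCm38.p6. The labels and the methods name different RNA kits. Whether the mice were chimeric is not given in the sources used here.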

Additional observations from a re-analysis of the deposited data

Results flagged for a closer look

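For 3 members every Dox library lay below and every Tc library above all control libraries: Zbp1 (log2 difference of Dox to Tc -2.53), Gbp3 (-1.22) and Psmb8 (-1.50). This pattern, by which the 3 were picked, already separates Dox from Tc. The direct tests below use the same libraries and are therefore no independent support. The share of all genes with this pattern is not given here. By limma with all 9 libraries the adjusted p was 0.113 for Zbp1 and 0.116 for Gbp3 and Psmb8, by DESeq2 it was 0.00213, 0.0109 and 0.0129. Without libraries 3 none of the 3 was called by limma or DESeq2. Both drug groups were set against the same control libraries.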

How the results depend on the processing

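If libraries 3, which resemble mixtures of the others, are not independent, adjusted p-values from all 9 libraries come out too low, and with 2 libraries a group only large differences could pass. The cause of the changes below was not tested unless the setting itself leaves out genes or libraries. The number of members called with Dox was 2, and 1 with a mean of at least 50, with only the 2 groups compared or with a replicate block over all 9 libraries. It was 0 with a replicate block of the 2 groups, without libraries 3 (limma or DESeq2) and without libraries 3 and without Dox replicate 2, 5 with array weights and 6 at an unadjusted p with the fold limit. Leaving out 1 library gave 0 to 13. With Tc 1 member passed at an unadjusted p with the fold limit, and leaving out 1 library gave 0. Between Dox and Tc, 5 passed with DESeq2, 7 with array weights, 6 at an unadjusted p, and 0 to 19 with 1 library left out. The replicate block changed no call there, where deviations of same-numbered libraries correlated. Whether such libraries were paired was not tested. For array weights and for an unadjusted p with the fold limit, shares over all genes are not given here. The counts of members in those settings therefore cannot be set against a background.

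The Dox medians without libraries 3 and Dox replicate 2, a setting added after seeing the data, were -0.135 for all members, -0.081 for type I targets, -0.120 for interferon-gamma GTPases and -0.369 for antigen processing, and against Tc -0.097, -0.040, -0.187 and -0.555. With 1 library left out, the Dox medians ranged from -0.995 to -0.380, -0.958 to -0.263, -1.410 to -0.430 and -1.523 to -0.617, and those against Tc from -1.021 to -0.335, -0.890 to -0.223, -1.619 to -0.452 and -1.909 to -0.847. The Tc median of all members was -0.072 with array weights and -0.077 to 0.097 with 1 library left out. For type I targets it was -0.032 with a mean of at least 50, -0.039 without libraries 3, with or without Dox replicate 2, and -0.126 to -0.021 with 1 library left out. For GTPases it was -0.086 to 0.151 and for antigen processing 0.076 to 0.260 with 1 library left out. Members without overlap numbered 17 to 30 (Dox), 14 to 21 (Tc) and 17 to 31 (Dox to Tc) with 1 library of the 2 groups compared left out. Leaving out a library raises the share of all genes as well. Without Dox replicate 2, Dox lay wholly below control for 24.8% of all genes and above for 24.7%, beside 17.4% and 15.3% with all 9 libraries. Against Tc these shares were 17.6% and 16.4%, beside 12.3% and 11.7%. Shares for the other single libraries are not given here. Scaling to the same total moved the median of all genes with Dox from -0.01 to 0.16, and the members' median relative to it was -0.71 under both.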
